A study of Chlamydomonas reinhardtii with 12 samples.

Results

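This comparison set vip1-1 cells against wild-type cells of the unicellular green alga Chlamydomonas reinhardtii before any light stress, in control light. The genes compared were chosen by a level alone: 3 or more of the 6 control-light libraries had to reach an FPKM of 1 (fragments scaled to transcript length and to the mapped total). This held for 11395 of the 17693 genes in the deposited table. The 6 libraries were 3 biological replicates of vip1-1 and 3 of wild type, out of 12 in the series. Per the labels, both strains carry the cell line name CC-1690 and were grown in liquid TAP medium, which supplies acetate and phosphate, at 25 ºC in light of 50 µmol m-2 s-1. The other 6 libraries, 3 of vip1-1 and 3 of wild type at 1500 µmol m-2 s-1, were used only to look at the same genes in separate libraries. The submitters describe vip1-1 as deficient in inositol pyrophosphates, and the labels name no second mutant line. With 1 mutant strain among these libraries, the vip1-1 lesion and any other difference in the background of the strain cannot be told apart.

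Inositol pyrophosphates are small signalling molecules that carry a diphosphate group on an already fully phosphorylated inositol ring, and kinases of the VIP1 family make them. Proteins with SPX domains bind them, which ties these molecules to the sensing of cellular phosphate and energy in fungi and plants. In Chlamydomonas, VIP1 has been linked to signalling through the TOR kinase, a regulator of growth, and to the storage of carbon as lipid. The study asked what part these molecules have in the response to high light, and the control-light comparison gives the state from which each strain starts.

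The deposited table holds identifiers without names. The RefSeq table of the Chlamydomonas assembly version 5.5 holds a locus tag for 15386 of the 17693 identifiers and for 10565 of the 11395 tested genes, but 0 gene symbols. Genes are therefore given by their identifier, their chromosome in that table and their values, with no name or role. For the same reason the level of the VIP1 gene and of marker genes for the cell type is not analysed here.

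The libraries of each strain were alike. Pearson's r of log2(FPKM + 1) over the tested genes was 0.975 to 0.988 within vip1-1 control, 0.972 to 0.987 within wild-type control and 0.909 to 0.945 between the strains. Fewer genes were detected in vip1-1: 10161 ± 93 genes had an FPKM of at least 1 in vip1-1 control, against 11592 ± 240 in wild-type control (SD, n = 3 each). Genes listed at 0 numbered 3252 ± 353 in vip1-1 and 2196 ± 317 in wild type. Neither range overlapped between the strains, and both gave p = 0.1 in an exact two-sided permutation test, the smallest that 3 libraries against 3 can give. The 100 most abundant genes held 66.0% ± 1.25 of the FPKM total in vip1-1 and 65.8% ± 1.39 in wild type (exact permutation p = 1). Depth is not given in the sources used here, so whether fewer reads or fewer expressed genes lie behind the count of detected genes was not tested. In bulk samples such as these, fewer cells with a transcript and less of it per cell cannot be told apart.

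As deposited, most called genes were lower in vip1-1, an order that turned after median centring and quantile normalization. On the deposited values, 1455 genes (12.8% of those tested) were higher in vip1-1 and 4913 (43.1%) were lower, at an adjusted p under 0.05 by limma with Benjamini-Hochberg adjustment over all 11395 genes. A difference of at least 2-fold was found in 207 genes upward (1.82%) and 1109 downward (9.73%). The tested genes include 770 that reached 1 FPKM in all 3 wild-type and 0 vip1-1 libraries, against 71 with the reverse pattern. For these the filter alone fixes the direction, so counts of calls here and below are weighted toward lower genes. The median log2 difference over all tested genes was -0.29, so the centre of the distribution lay below 0. Centring the libraries on their medians gave 3085 higher genes (27.1%) and 2268 lower ones (19.9%). Quantile normalization gave 2620 (23%) upward and 2297 (20.2%) downward. The share of higher genes among those called was thus 22.8% as deposited, 57.6% after median centring and 53.3% after quantile normalization. Because the direction of many genes depended on the scaling, the genes described from here on are those called with the same sign under all 3 scalings, 1374 higher (12.1%) and 1987 lower (17.4%) in vip1-1.

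Which direction held the larger differences depended on the scaling. As deposited, the 1374 higher genes had a median log2 difference of 0.59, and 206 of them (15%) reached a 2-fold difference, 30 a 4-fold and 7 an 8-fold one. For the 1987 lower genes the median was -0.99, and 966 (48.6%) reached a 2-fold difference, 98 a 4-fold and 19 an 8-fold one. After median centring, which removes the difference between the library medians, the order turned, with medians of 0.92 and -0.66. A 2-fold difference was then reached by 539 of the higher genes (39.2%) and 444 of the lower ones (22.3%). Under quantile normalization the medians were 0.82 and -0.68, and 412 and 478 genes reached a 2-fold difference. No value of vip1-1 overlapped the wild-type values in 1368 of the 1374 higher genes and in all 1987 lower genes. Over all tested genes, groups without overlap were found in 15.8% with vip1-1 above wild type and in 47.9% with vip1-1 below it, so separation of the groups was common. These shares carry the limit of the filter given above.

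The share of genes higher in vip1-1 was larger from 100 to 1000 FPKM than from 20 to 50 FPKM under each scaling, by little under quantile normalization. From 1000 FPKM it was smaller again, at 33.6% as deposited, 55.5% after median centring and 24.2% after quantile normalization. The level at which higher genes outnumbered lower ones depended on the scaling. As deposited, 4.90% of the 2430 genes with a mean below 2 FPKM were higher and 53.8% lower. In the 1028 genes from 20 to 50 FPKM these shares were 23.7% and 32.6%, and in the 401 genes from 100 to 1000 FPKM they were 42.1% and 20%. Higher genes were thus the more frequent ones from 50 FPKM upward on the deposited values.

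After median centring, 13.6% were higher and 21% lower below 2 FPKM, 27.2% and 21.3% from 5 to 10 FPKM, 43.2% and 16.1% from 20 to 50 FPKM, and 66.1% and 11.5% from 100 to 1000 FPKM, so that the order turned at 5 FPKM. Quantile normalization, which gives every library the same distribution of values, gave 17.5% higher and 13.4% lower below 2 FPKM, 28.3% and 24.1% from 20 to 50 FPKM, and 30.7% and 24.2% from 100 to 1000 FPKM, with lower genes the more frequent ones in the class from 1000 FPKM alone. Under all 3 scalings together, 4.90% were higher and 13.3% lower below 2 FPKM, 23.7% and 16.1% from 20 to 50 FPKM, and 30.7% and 11.5% from 100 to 1000 FPKM. Below 50 FPKM these higher shares equal those as deposited, so the combined shares carry the limits of each scaling. The lowest class also holds 709 genes that reached 1 FPKM in all 3 wild-type libraries and in 0 vip1-1 libraries, against 58 with the reverse pattern, so genes that passed the filter through wild type are frequent in it and no direction is read from its shares. Depth was not available to set beside these shares, and its part was not tested.

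**Figure D1:**
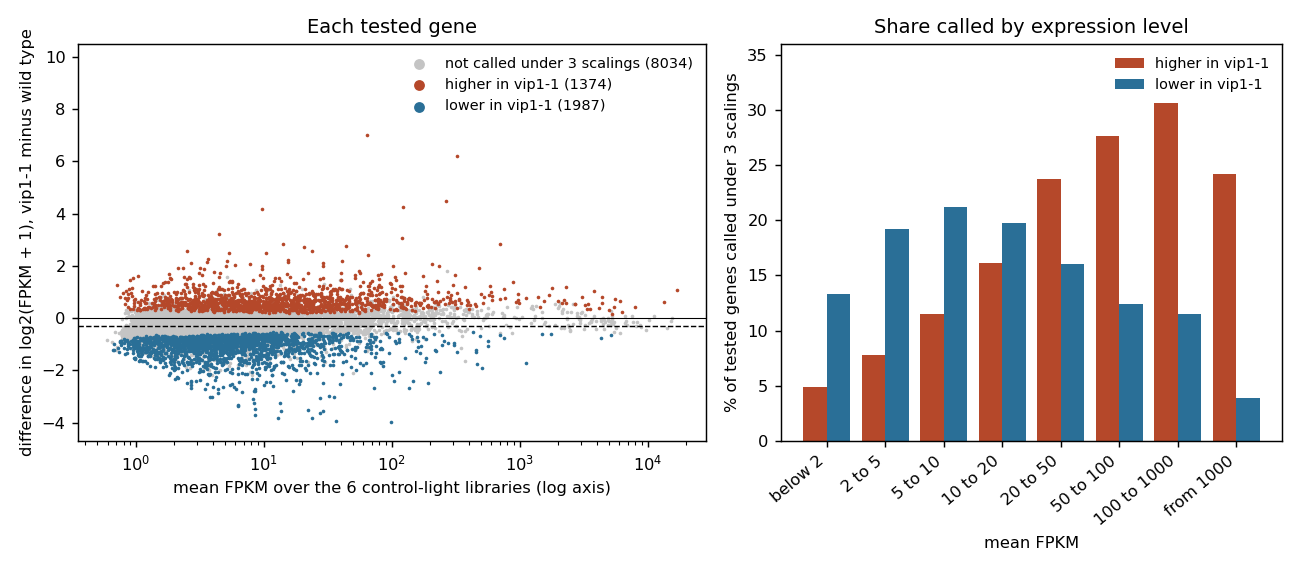
Left, the log2(FPKM + 1) difference of each tested gene, vip1-1 minus wild type in control light, against its mean FPKM on a log axis, with the median of -0.29 dashed. Right, the share of tested genes higher or lower in vip1-1 under all 3 scalings in 8 classes of mean FPKM, where the higher share is 4.90% in the lowest class and 30.7% from 100 to 1000 FPKM. In this combination higher genes outnumber lower ones from 20 FPKM, against 50 FPKM as deposited and 5 FPKM after median centring.

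The largest upward differences after that of Cre12.g537611_4532.v6.1, which was detected in vip1-1 alone and is described further on, were those of 3 genes detected in both strains. Cre17.g802031_4532.v6.1 had 625, 555 and 724 FPKM in vip1-1 control, against 7.07, 4.74 and 12.3 FPKM in wild-type control. All vip1-1 libraries thus lay far above the wild-type ones, with a ratio of the means of 78.9 and a difference of 6.21 on the log2 scale (SE 0.29, limma adjusted p 5.31e-05). It has no counterpart in the RefSeq table. Cre06.g282800_4532.v6.1, on chromosome 6, had 530, 547 and 439 FPKM in vip1-1 and 19.7, 18.8 and 27.4 FPKM in wild type. Cre03.g144807_4532.v6.1, on chromosome 3, had 231, 251 and 224 FPKM in vip1-1 and 10.2, 9.53 and 15.2 FPKM in wild type. The ratio of the means was 23.0 for the chromosome 6 gene (log2 difference 4.48, SE 0.16, limma adjusted p 3.32e-05) and 20.2 for the chromosome 3 gene (4.25, SE 0.17, limma adjusted p 4.13e-05). In both genes wild-type replicate 3 was the highest of its group, and still far below every vip1-1 value.

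Other genes of this group differed by 2.72 to 4.16 on the log2 scale. Cre15.g641200_4532.v6.1, on chromosome 15, had 218, 215 and 217 FPKM in vip1-1, against 21.7, 22.1 and 31.5 FPKM in wild type. The spread among the vip1-1 libraries was small beside the strain difference, which was 3.08 on the log2 scale (SE 0.14, limma adjusted p 5.31e-05). Cre16.g686750_4532.v6.1, on chromosome 16, had 61.5, 86.6 and 83.7 FPKM in vip1-1, against 8.78, 13.2 and 9.81 FPKM in wild type, with a ratio of the means of 7.30. Cre10.g456100_4532.v6.1, on chromosome 10, had 35.6, 36.1 and 37.0 FPKM in vip1-1 and 4.26, 5.05 and 4.70 FPKM in wild type, with a ratio of 7.75. Cre07.g800779_4532.v6.1, which the RefSeq table lacks, had 25.0, 31.1 and 20.7 FPKM in vip1-1 and 2.01, 2.80 and 3.38 FPKM in wild type. Its ratio of the means was 9.38. The limma adjusted p of these last 3 genes was at most 0.000141. In each the groups lay well apart, and their choice required that they not overlap. Cre16.g681200_4532.v6.1, also on chromosome 16, had 18.1, 26.5 and 13.5 FPKM in vip1-1. Wild type had 0.0564 FPKM in replicate 1, 0.258 FPKM in replicate 3 and a listed 0 in replicate 2 (limma adjusted p 8.94e-05). This gene passed the filter through vip1-1 alone, which fixed its direction. The last of the 10 genes with the largest upward difference, Cre01.g021350_4532.v6.1 and Cre12.g537611_4532.v6.1, were listed at 0 in every wild-type library and are described further on.

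The genes with the largest downward difference fell into a set with even wild-type values and a set with uneven ones. In the even set, Cre17.g731571_4532.v6.1, on chromosome 17, had 2.21, 2.24 and 2.31 FPKM in vip1-1, against 49.3, 42.4 and 43.7 FPKM in wild type. The wild-type mean was 20 times that of vip1-1 (log2 difference -3.82, SE 0.09, limma adjusted p 1.01e-05). Cre06.g271900_4532.v6.1, on chromosome 6, had 2.94, 2.50 and 2.74 FPKM in vip1-1 and 39.4, 41.4 and 44.5 FPKM in wild type. It differed by -3.52 on the log2 scale (SE 0.09, limma adjusted p 1.31e-05). Cre09.g391726_4532.v6.1, on chromosome 9, had 4.64, 3.29 and 3.20 FPKM in vip1-1 and 58.0, 52.2 and 54.0 FPKM in wild type. In these 3 genes the vip1-1 libraries held a small fraction of the wild-type level, and the replicates of either strain differed little. Cre12.g527200_4532.v6.1, on chromosome 12, had 1.54, 1.45 and 0.961 FPKM in vip1-1 and 24.3, 25.3 and 28.7 FPKM in wild type. Cre07.g334750_4532.v6.1, on chromosome 7, had 0.485, 0.350 and 0.229 FPKM in vip1-1 and 14.1, 17.5 and 18.3 FPKM in wild type, with a wild-type mean 46.9 times that of vip1-1. Cre16.g683200_4532.v6.1, on chromosome 16, had 0.268, 0.741 and 0.763 FPKM in vip1-1 and 14.6, 15.1 and 20 FPKM in wild type. The limma adjusted p of the last 4 genes was at most 6.73e-05. Cre07.g334750_4532.v6.1 and Cre16.g683200_4532.v6.1 were below 1 FPKM in every vip1-1 library. They passed the filter through wild type alone, which fixed their direction.

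In the uneven set, the wild-type replicates differed by more than 2-fold, with replicate 3 the highest each time. Cre02.g107200_4532.v6.1, on chromosome 2, had 13.5, 11.6 and 6.57 FPKM in vip1-1 and 110, 171 and 283 FPKM in wild type. Cre03.g143967_4532.v6.1, on chromosome 3, had 2.95, 3.89 and 2.78 FPKM in vip1-1 and 35.4, 65.7 and 110 FPKM in wild type. Cre12.g541400_4532.v6.1, on chromosome 12, had 3.92, 3.04 and 1.70 FPKM in vip1-1 and 24.1, 52.5 and 78.1 FPKM in wild type. Cre09.g395213_4532.v6.1, on chromosome 9, had 1.06 and 1.55 FPKM in vip1-1 replicates 1 and 2, was listed at 0 in replicate 3, and had 14.9, 24.0 and 35.9 FPKM in wild type. The strains did not overlap in any of the 4 genes, as their choice required. The log2 differences were -3.98, -3.95, -3.65 and -3.82, with limma adjusted p from 0.000375 to 0.000781. Over all 1987 lower genes, 127 (6.39%) had a highest wild-type value at least 2-fold above the lowest. Wild-type replicate 3 was the highest library in 111 of these 127 genes and replicate 1 the lowest in 120. This range and order were not counted over all tested genes, so they are not read as particular to the lower genes. Without replicate 3, and in each fit that left out 1 other library, all 20 genes of largest difference stayed past the threshold. Their choice by size in these same libraries made this likely.

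**Figure D2:**
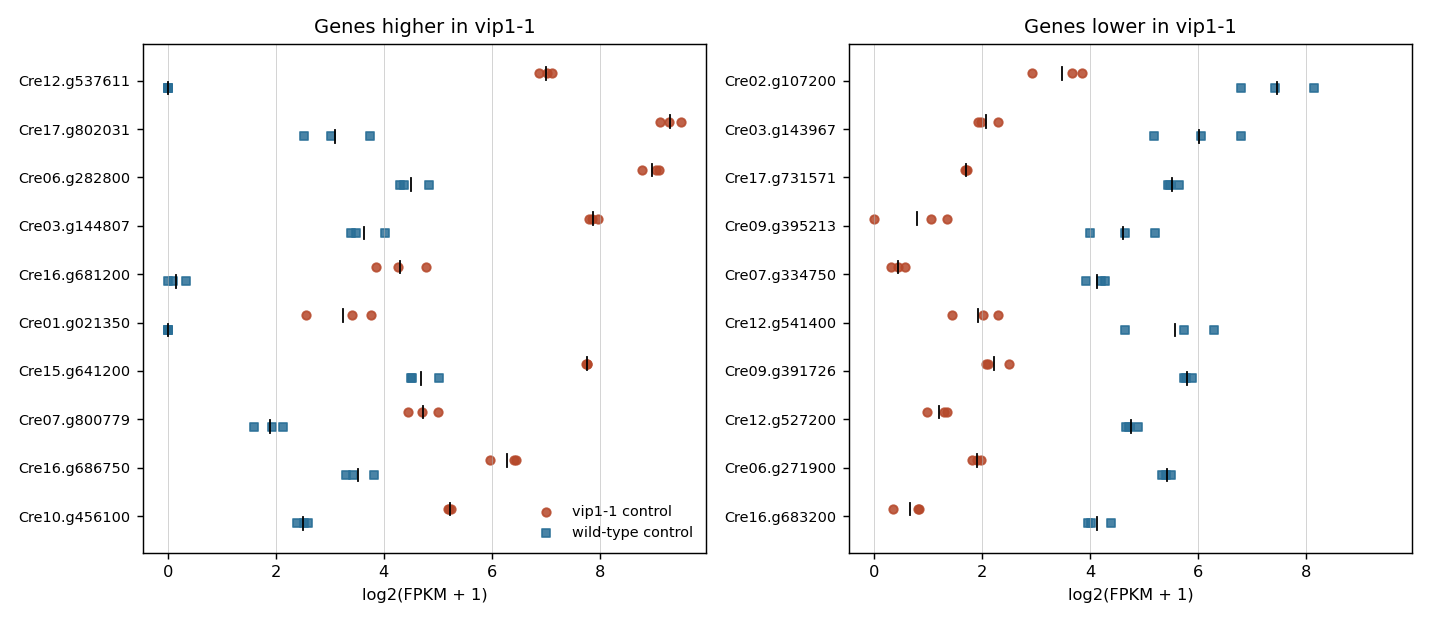
Values of log2(FPKM + 1) in each control-light library for the 10 genes with the largest difference in each direction, vip1-1 as circles above wild type as squares, with the mean of each group as a bar and identifiers without their shared ending. The groups do not overlap in any of the 20 genes, as their choice required, and a value listed at 0 stands at 0.

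The most abundant transcripts were then examined, since they make up much of what was sequenced. The 20 genes of highest mean FPKM, from 6345 to 17005, held 26.1% ± 1.31 of the FPKM total in vip1-1 and 26% ± 1.46 in wild type (SD, n = 3 each, exact permutation p = 1). Their log2 differences ran from -0.46 to 1.08. As deposited, 4 were higher and 6 lower in vip1-1, and under all 3 scalings the 4 higher genes were called and 0 of the lower ones. Over all tested genes the shares were 12.8% higher and 43.1% lower as deposited, and 12.1% and 17.4% under 3 scalings. In the 128 genes from 1000 FPKM they were 33.6% and 24.2% as deposited, and 24.2% and 3.91% under 3 scalings. The counts are therefore not read as particular to these 20 genes. The following genes were singled out after their values were seen. Cre17.g738300_4532.v6.1, on chromosome 17, had 24469, 19694 and 25267 FPKM in vip1-1, against 11507, 10742 and 10350 FPKM in wild type. It was the most abundant of all genes in each vip1-1 control library, with a ratio of the means of 2.13 and a difference of 1.08 on the log2 scale (SE 0.10, limma adjusted p 0.000386). Cre01.g066917_4532.v6.1, on chromosome 1, had 17489, 16074 and 15445 FPKM in vip1-1 and 10462, 10429 and 11260 FPKM in wild type (log2 difference 0.61, SE 0.07, limma adjusted p 0.000625). The other 2 raised genes, Cre03.g182551_4532.v6.1 and Cre14.g626700_4532.v6.1, differed by 0.42 and 0.25 on the log2 scale (limma adjusted p 0.00359 and 0.00832). Cre02.g120150_4532.v6.1, on chromosome 2, was lower as deposited, with 8417, 8361 and 7876 FPKM in vip1-1 and 12142, 10671 and 11073 FPKM in wild type, but its difference of -0.46 was not called under all 3 scalings.

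**Figure D3:**
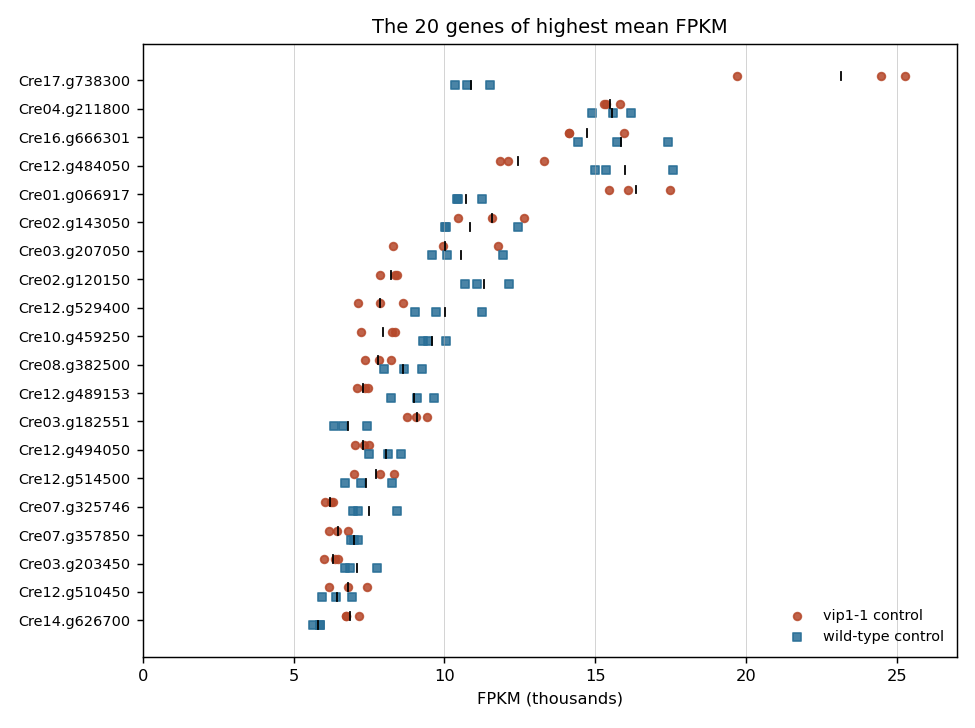
FPKM, on an axis divided by 1000, of the 20 genes with the highest mean in control light, ordered by that mean, with the 3 vip1-1 libraries as circles above the 3 wild-type libraries as squares, the mean of each group as a bar and identifiers without their shared ending. The top gene lies between 19694 and 25267 FPKM in vip1-1 and between 10350 and 11507 FPKM in wild type, and the groups of most other genes lie closer together.

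Some genes were detected in a single strain. An exact 0 in a table of this kind can be a failed estimate, so such genes are described by the value in each library. In vip1-1 control, 6 genes had at least 1 FPKM in all 3 libraries while all 3 wild-type control libraries were listed at 0. The reverse was found in 24 genes, with wild-type means from 1.33 to 7.62 FPKM and a median of 2.24. All 30 were past the limma threshold in control light, which their choice made likely. The high light libraries, which had no part in the choice, split them. In 2 of the 6 vip1-1 genes, all 3 wild-type high light libraries were again listed at 0 and all 3 vip1-1 high light libraries were at 1 FPKM or more. Among the 24 wild-type genes this held for 1, Cre02.g083100_4532.v6.1, which was singled out after its values were seen. It was listed at 0 in all 6 vip1-1 libraries and had 2.06, 1.00 and 1.11 FPKM in wild-type control and 1.77, 2.46 and 3.16 FPKM in wild-type high light.

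The clearest of them was Cre12.g537611_4532.v6.1, on chromosome 12. It had 128, 117 and 137 FPKM in vip1-1 control and 159, 128 and 81.3 FPKM in vip1-1 high light, while all 6 wild-type libraries were listed at 0. Cre01.g021350_4532.v6.1, on chromosome 1, behaved likewise at a lower level, with 9.56, 12.5 and 4.85 FPKM in vip1-1 control and 3.71, 8.36 and 2.21 FPKM in vip1-1 high light. Cre07.g325850_4532.v6.1, on chromosome 7, had 1.96, 1.56 and 2.70 FPKM in vip1-1 control and 2.58, 2.81 and 1.93 FPKM in vip1-1 high light, and its wild-type high light values were 0.0640 and 0.0617 FPKM with replicate 3 listed at 0. Cre08.g369550_4532.v6.1, on chromosome 8, was at 1.33, 1.52 and 1.39 FPKM in vip1-1 control, against a highest value of 0.807 FPKM in wild-type high light. The remaining 2 genes were also expressed by wild type in high light. Cre07.g325742_4532.v6.1, on chromosome 7, had 2.21, 1.44 and 2.07 FPKM in vip1-1 control, and high light values of 66.1, 53.2 and 42.5 FPKM in vip1-1 and 35.7, 8.18 and 44.5 FPKM in wild type. Cre15.g801696_4532.v6.1 had 1.82, 1.31 and 2.27 FPKM in vip1-1 control and 6.84, 5.89 and 0.497 FPKM in wild-type high light.

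The genes next to Cre12.g537611_4532.v6.1 in the order of the RefSeq assembly did not share its pattern. Its neighbour on the lower-numbered side, Cre12.g537581_4532.v6.1, had 27.3 ± 3.85 FPKM in vip1-1 and 31.3 ± 1.31 FPKM in wild type (SD, n = 3 each, limma adjusted p 0.165). On the other side, Cre12.g537641_4532.v6.1 had 22.8 ± 2.76 FPKM in vip1-1 and 11.6 ± 0.681 FPKM in wild type, higher in vip1-1 by 0.91 on the log2 scale (limma adjusted p 0.000710). Both neighbours were thus expressed in both strains.

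The 5 most abundant of the 24 genes detected in wild-type control alone stayed at or below 11.1 FPKM in every library. Cre16.g671650_4532.v6.1, on chromosome 16, had the most even values, 5.50, 5.30 and 5.44 FPKM in wild-type control with all 3 vip1-1 control libraries listed at 0. In high light the gene was detected in both strains, with 1.03, 0.766 and 1.26 FPKM in vip1-1 and 1.95, 1.87 and 2.23 FPKM in wild type. Its log2 difference there was -0.59 (limma adjusted p 0.00241, or 0.0464 with the high light libraries alone, where it was not called under all 3 scalings). Cre16.g801952_4532.v6.1 had 3.80, 8.01 and 11.1 FPKM in wild-type control, and Cre02.g074511_4532.v6.1, on chromosome 2, had 2.42, 5.02 and 8.79 FPKM. Cre15.g801745_4532.v6.1 had 1.36, 5.73 and 9.02 FPKM and Cre02.g096737_4532.v6.1, on chromosome 2, had 2.36, 3.62 and 6.69 FPKM in wild-type control. In these last 4 genes wild-type replicate 3 was again the highest and replicate 1 the lowest.

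**Figure D4:**
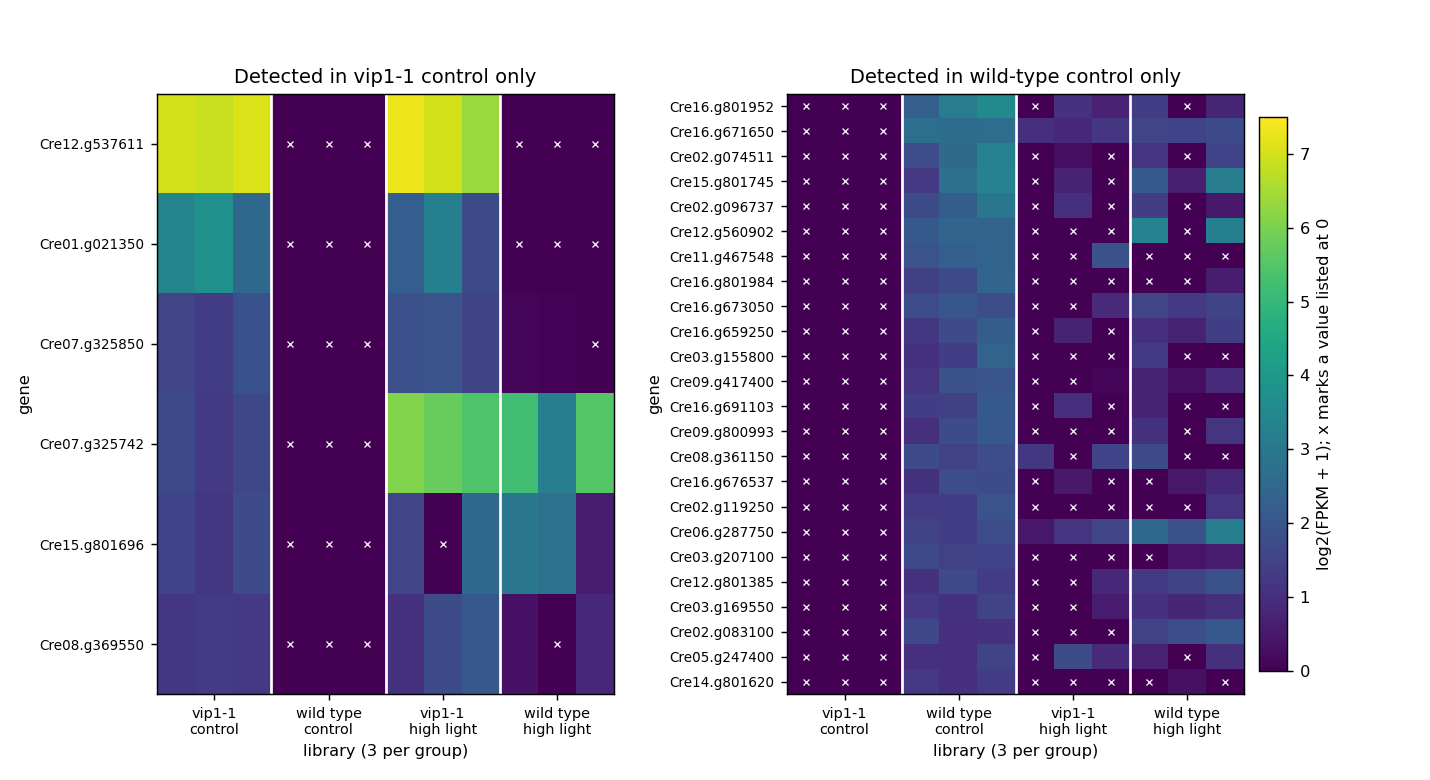
Values of log2(FPKM + 1) as colour in all 12 libraries for the 6 genes detected in vip1-1 control alone and the 24 detected in wild-type control alone, with a cross where a value is listed at 0 and identifiers without their shared ending. The top 2 genes on the left are listed at 0 in all 6 wild-type libraries, while most genes on the right are low in every group.

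Called genes were also looked at in the order of the RefSeq assembly, among the 10565 tested genes with a place in it. No comparison with a random order was made. The longest unbroken runs held 6 genes in each direction, and they were singled out after their values were seen. The run of higher genes lay on chromosome 8, from Cre08.g381100_4532.v6.1 to Cre08.g381350_4532.v6.1, with log2 differences from 0.55 to 0.79 (limma adjusted p up to 0.00796). Its genes were weakly expressed. Those from Cre08.g381150_4532.v6.1 to Cre08.g381300_4532.v6.1 were below 1 FPKM in every wild-type library and passed the filter through vip1-1 alone. The filter thus fixed the direction of these genes. Cre08.g381200_4532.v6.1 had 1.40, 1.25 and 1.42 FPKM in vip1-1 and 0.455, 0.384 and 0.266 FPKM in wild type, and the next gene, Cre08.g381250_4532.v6.1, had nearly the same values, with 1.34, 1.14 and 1.43 FPKM in vip1-1 and 0.398, 0.389 and 0.259 FPKM in wild type. Whether neighbouring genes in this run share reads was not tested, so they are uncertain as separate measurements. In high light the 6 genes differed by 0.16 to 0.83 on the log2 scale. As deposited, 4 passed the threshold with all 12 libraries in the fit, against 0 with the high light libraries alone. Over all tested genes, 12.8% were called higher in high light in the fit of 12 libraries.

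The run of lower genes lay on chromosome 13, from Cre13.g574250_4532.v6.1 to Cre13.g574700_4532.v6.1, with log2 differences from -1.49 to -0.66 (limma adjusted p up to 0.00136). Cre13.g574650_4532.v6.1, inside this run, had 5.48, 3.92 and 5.64 FPKM in vip1-1 and 17.3, 16.1 and 14 FPKM in wild type. Cre13.g574250_4532.v6.1 had 2.81, 2.98 and 2.47 FPKM in vip1-1 and 6.93, 8.50 and 9.17 FPKM in wild type. Cre13.g574350_4532.v6.1 was below 1 FPKM in every vip1-1 library and passed the filter through wild type alone, which fixed its direction. All 6 genes were lower in vip1-1 in high light too, by 0.81 to 1.98 on the log2 scale in size. All 6 passed the threshold there as deposited, or 5 with the high light libraries alone. With all 12 libraries in the fit, 33.9% of all tested genes were called lower in high light as deposited, so this direction was common.

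Transcripts of the organelle genomes, marked CreCp for chloroplast and CreMt for mitochondrion in the identifiers, were scarce in these poly(A) libraries. The summed FPKM of the 74 chloroplast genes was 76.1, 762 and 115 in vip1-1 control, against 356, 77.5 and 101 in wild-type control. Vip1-1 replicate 2 and wild-type replicate 1 were thus the high libraries, and the groups overlapped (exact permutation p = 0.7). Of the 19 chloroplast genes tested, 0 were called by limma (lowest adjusted p 0.163) and 0 had an unadjusted p under 0.05, although 17 had a positive difference. The 8 mitochondrial genes summed to 4.20, 13.5 and 3.24 FPKM in vip1-1 and 4.52, 4.0 and 3.97 FPKM in wild type.

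The high light libraries gave the strain difference of the same 11395 genes in cells not used for the calls above. The fit held all 12 libraries, so the 4 groups shared 1 estimate of the spread. The high light p-values therefore rest in part on the control-light libraries used for the calls. As deposited, 1455 genes (12.8%) were higher and 3866 (33.9%) lower in vip1-1 in high light, with a median difference of -0.26 over all genes. Under all 3 scalings these were 1409 (12.4%) and 2144 (18.8%). Of the 1374 genes higher in control light, 642 (46.7%) were also higher in high light, which is 45.6% of the genes higher there, and 30 (2.18%) were lower. Of the 1987 lower genes, 1030 (51.8%) were also lower in high light, which is 48.0% of the genes lower there, and 31 (1.56%) were higher. Fewer genes passed with the high light libraries alone in the fit, an alternative that left 384 higher and 740 lower genes shared. Counting by side of the median rather than by test, 87.6% of the higher and 84.7% of the lower genes lay on the same side in high light. Pearson's r between the strain differences of the 2 light levels was 0.57 across the 11395 genes, which are not independent replicates and share their length and level.

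The interaction, the strain difference in high light minus that in control light, asked where the 2 differ. As deposited it was positive in 464 genes (4.07%) and negative in 543 (4.77%) past the threshold, and under all 3 scalings in 297 (2.61%) and 422 (3.7%). These totals depended strongly on single libraries. Leaving out any 1 of the 6 control libraries gave 123 to 184 positive and 159 to 225 negative genes. Without vip1-1 high light replicate 2 there were 179 and 254, and without wild-type high light replicate 1 there were 140 and 189. Without wild-type high light replicate 2 there were 552 and 687, and without vip1-1 high light replicate 3 the negative ones numbered 637. With the replicate number as a block there were 212 and 280.

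Among the 10 genes with the largest upward difference, 7 passed the threshold in high light in the same direction. Over all tested genes, 12.8% were called higher there as deposited. With the high light libraries alone 6 of the 10 passed, and Cre10.g456100_4532.v6.1 was lost (limma adjusted p 0.0574). Cre12.g537611_4532.v6.1 differed by 7.0 on the log2 scale in control light and by 6.90 in high light (limma adjusted p 3.29e-08 in high light, interaction adjusted p 0.847). With the high light libraries alone its limma adjusted p was 0.000812. Cre06.g282800_4532.v6.1 stood at 168, 200 and 127 FPKM in vip1-1 high light, against 112, 332 and 51.5 FPKM in wild-type high light, so that the strains overlapped there. Its difference in high light was 0.38 (limma adjusted p 0.568). Cre03.g144807_4532.v6.1 had 188, 153 and 101 FPKM in vip1-1 high light and 66.6, 166 and 41.6 FPKM in wild-type high light, with a difference of 0.88 (limma adjusted p 0.108). Cre15.g641200_4532.v6.1 had 119, 88.5 and 99.0 FPKM in vip1-1 high light and 81.9, 266 and 38.4 FPKM in wild-type high light, with a difference of 0.10 (limma adjusted p 0.893). In these last 3 genes wild-type high light replicate 2 was the highest library of its group and replicate 3 the lowest.

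All 10 genes with the largest downward difference had a negative difference in high light. Of these, 9 passed the threshold there, also with the high light libraries alone. Over all tested genes, 33.9% were called lower in high light as deposited, and the median difference was -0.26. Cre07.g334750_4532.v6.1 had 1.06, 1.80 and 10.2 FPKM in vip1-1 high light and 73.5, 61.9 and 45.7 FPKM in wild-type high light. Its log2 difference was -3.91 in high light and -3.70 in control light (limma adjusted p 0.000149 in high light, or 0.00903 with the high light libraries alone). Cre06.g271900_4532.v6.1 had 8.81, 36.9 and 43.8 FPKM in vip1-1 high light and 258, 338 and 199 FPKM in wild-type high light. Its difference was -3.35 (limma adjusted p 0.000238, or 0.0113 with the high light libraries alone). The strains did not overlap in either gene. The exception was Cre12.g541400_4532.v6.1, listed at 0 in vip1-1 high light replicate 1 and at 4.04 and 3.25 FPKM in the others. Its wild-type high light values were 5.93, 8.18 and 3.84 FPKM, and its limma adjusted p was 0.102.

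**Figure D5:**
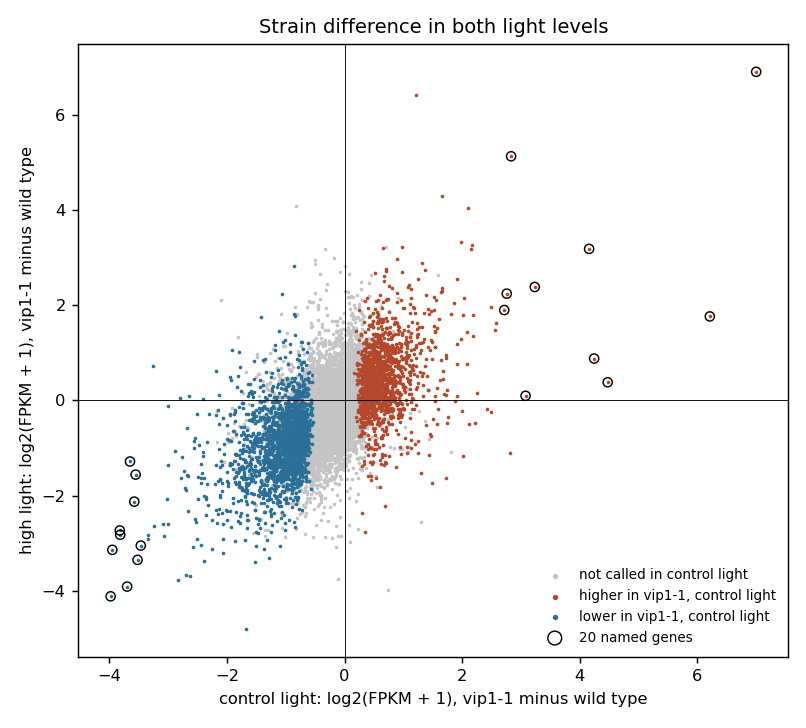
The strain difference in log2(FPKM + 1), vip1-1 minus wild type, of each of the 11395 tested genes in control light (horizontal) and in high light (vertical), coloured by the control-light call under 3 scalings, with the 20 named genes circled. The circled genes at the left all lie below 0 in high light, while 3 of those at the right lie between 0 and 1.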

How the data were processed

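Per the labels' protocols, RNA was extracted with a plant RNA kit and made into stranded mRNA libraries, from 3 biological replicates per group. The authors deposited a table of FPKM values per gene and library. HISAT2 and StringTie are named in the submitters' processing notes, with no version; the genome build, the filters and the depth are not given in the sources used here. In values up to 0.15 FPKM, the most common ratio between 2 libraries held 0.873% to 1.86% of the genes over 15 pairs, so whole reads were not recovered, no count model was used and precision rests on the replicates. The identifiers carry the suffix of annotation release 6.1.

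Values were transformed to log2(FPKM + 1), which understates changes of low genes. Genes at 1 FPKM or more in at least 3 of the 6 control-light libraries were tested with limma 3.58.1 in R 4.3.3 (empirical Bayes with a variance trend, no block, two-sided, Benjamini-Hochberg adjustment, threshold 0.05), using these 6 libraries alone. A call under 3 scalings passed as deposited, with libraries centred on their medians and quantile normalized. The strain difference in high light and the interaction came from 1 fit of all 12 libraries with 4 group means, over the same genes. The labels call the replicates biological and do not say how cultures were separated, so p-values measure the spread between these samples. No 2 of the 6 libraries held an identical value above 0. Figures were drawn with matplotlib 3.10.9.

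The comparison, tests and lists were chosen with earlier results of these data known. Named genes are the 10 per direction with the largest difference among genes called under 3 scalings, with no overlap between the strains, no 0 in the higher strain and a mean of at least 5 FPKM there, plus all genes detected in vip1-1 control alone and the 5 most abundant detected in wild-type control alone. A planned set of 37 gene lists by symbol matched 0 entries, since the reference holds no symbols, and is not used here. At the filter, 1001 genes reached 1 FPKM in exactly 3 libraries (median group means 0.663 FPKM in vip1-1 and 1.50 in wild type) and 529 in exactly 2 (0.519 and 1.09). Alternatives covered pseudocounts, filters, scalings, variance models, samples, a block on the replicate number, and fits with 1 library left out.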

Additional observations from a re-analysis of the deposited data

Results flagged for a closer look

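For 7 of the genes named above the strain difference itself differed between the light levels. Each had an interaction (the difference in high light minus that in control light, log2 scale, limma over all 12 libraries) past the threshold under all 3 scalings and in each of 12 fits that left out 1 library. The genes were named for their control-light values, which also enter the interaction, so a smaller difference in high light was favoured by their choice. The adjusted p and the refits do not account for this.

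The difference shrank in 3 genes higher in vip1-1. The interaction was -4.45 for Cre17.g802031_4532.v6.1 (adjusted p 0.00367), with 128, 132 and 144 FPKM in vip1-1 high light and 27.3, 89.3 and 24.0 FPKM in wild-type high light. For Cre06.g282800_4532.v6.1 it was -4.09 (adjusted p 0.00951) and for Cre03.g144807_4532.v6.1 it was -3.37 (adjusted p 0.00949). It grew in Cre07.g800779_4532.v6.1, with an interaction of 2.29 (adjusted p 0.00317), where vip1-1 high light had 37.9, 42.8 and 25.5 FPKM and wild-type high light had 0.0619 FPKM in replicate 3 and was listed at 0 in the others.

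Among genes lower in vip1-1 in control light, the interaction was 2.00 for Cre12.g527200_4532.v6.1 (adjusted p 0.00271), with 7.71, 10.3 and 10.4 FPKM in vip1-1 high light and 37.0, 28.7 and 24.1 FPKM in wild-type high light. It was 2.1 for Cre16.g671650_4532.v6.1 (adjusted p 0.000162) and 2.89 for Cre16.g801952_4532.v6.1 (adjusted p 0.0138). For these last 2 the control-light values of vip1-1 were listed at 0, as their choice required.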

How the results depend on the processing

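The number of genes past the threshold depended on the scaling, the filter and the spread. As deposited, 1455 higher and 4913 lower genes were called, 207 and 1109 of them at least 2-fold. At least 2-fold differences were found in 556 and 451 genes after median centring and in 423 and 487 after quantile normalization, whose total calls stand in the report (3085 and 2268, 2620 and 2297). When libraries were scaled without their 1000 most abundant genes, 2482 were called upward and 3140 downward, 411 and 650 at least 2-fold. With a filter on a mean of at least 5 FPKM, fewer genes were tested. Of these, 1070 were higher and 2020 lower, 147 and 516 at least 2-fold. A pseudocount of 0.1 gave 1951 genes at least 2-fold lower, and one of 5 gave 98 higher and 285 lower. With all 12 libraries in the fit, 804 genes were higher and 3128 lower, and 722 and 1298 under 3 scalings. With the high light libraries alone in the fit, chosen after seeing the data, 749 genes were higher and 1295 lower in high light under 3 scalings, and 384 and 740 were shared with control light. The cause of these changes was not tested. No direction of a named gene turned. Of 540 refits of named genes in control light, 539 kept their side of the threshold, and Cre15.g801696_4532.v6.1 lost it with all 12 libraries (adjusted p 0.111). The genes of largest difference were chosen for their calls under all 3 scalings, so their refits with median centring and quantile normalization could not fail. All named genes were chosen for their control-light values in these same libraries, which made the other results likely.

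Leaving out 1 library gave 1156 to 1308 higher and 3785 to 4669 lower genes, 208 to 226 and 953 to 1261 at least 2-fold, and 1076 to 1247 and 1407 to 1759 under 3 scalings. Of the 1374 higher genes, 988 (71.9%) kept their call in all 6 of these fits, and of the 1987 lower genes 1259 (63.4%) did. In high light such fits, added after the data were seen, gave 1101 to 1441 higher and 1643 to 2145 lower genes, 534 to 646 and 861 to 1046 shared with control light, and 123 to 552 positive and 159 to 687 negative interactions. Asking for at least 5 FPKM left 1 gene detected in vip1-1 control alone and 1 in wild-type control alone.

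With the replicate number as a block, 1147 genes were higher and 4010 lower, and 1067 and 1404 under 3 scalings. In high light the block gave 1328 higher and 2030 lower genes, 607 and 994 shared, with 212 positive and 280 negative interactions. Deviations from the group mean had r from -0.51 to -0.07 for same-numbered libraries and from -0.45 to 0.49 for other pairs. Such deviations sum to 0 over the 3 libraries of a group, so these values depend on each other. They cannot show whether the numbers pair the samples.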
